A study of Mus musculus with 11 samples.

Results

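The genes of the major histocompatibility complex (MHC) and of antigen presentation were followed in the colon mucosa of mice fed a control diet or the same diet with inulin, a fructan fibre fermented by gut bacteria. They were chosen by name and not by a cut on their values, but with earlier results of these data known. The set holds every gene whose only annotated symbol starts with H2-, the mouse MHC, and 14 further genes. The latter are Cd74, Ciita, B2m, Tap1, Tap2, Tapbp, Psmb8, Psmb9, Psmb10, Nlrc5, Cd1d1, Mr1, Ctss and Erap1. The choice gave 47 of the 18820 genes on the arrays. Of these, 34 belong to class I (26 chains and 8 genes of processing), 11 belong to class II, and 2 are neither. Those 2 are the pseudogene H2-K2 and the region gene H2-Ke6. RefSeq lists H2-T10, which is counted with the class I chains, as a transcribed pseudogene too. The classical class I gene H2-D1 was not analysed here, because no probe set carried its symbol alone.

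Class I molecules pair a heavy chain with beta-2-microglobulin and show peptides made in the cell to CD8 T cells. The peptides are cut by the proteasome, pumped into the endoplasmic reticulum by the TAP transporter and loaded there. Class II molecules show peptides from taken-up proteins to CD4 T cells. In the gut they are carried above all by B cells, dendritic cells and macrophages, and by epithelial cells when interferon gamma is present. Ciita, the class II transactivator, drives the class II genes through a shared promoter module of an X box bound by RFX and a Y box bound by NF-Y, and Nlrc5 plays the matching part for class I.

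All mice were male C57BL/6J animals of 12 weeks that had been adapted to a low-fat diet for 2 weeks. For 10 days, 5 control mice then stayed on that diet, and 6 inulin mice ate it with 10% by weight of inulin in place of corn starch. Colonic mucosa was scraped off, and the RNA of each mouse was hybridised to 1 single-colour array. The labels differ on the last meal: the protocol describes 1 g of diet given after an overnight fast and killing 4 h later, while the design text describes tissue taken after the fast. No cage, batch or scan date is in the labels, so none could be compared with diet.

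Values are log2 array values normalised by the authors, on which 1 unit is a doubling. The lower quartile of all values was 3.76, and 39 of the 47 genes had a mean above it. Values below it were taken to carry little signal, a cut that was not set against a measured background. Levels were compared between mice for 1 gene at a time, never between genes. In these bulk scrapings, fewer cells of a type and less RNA per cell cannot be told apart. The class I chains are also close copies of each other, so a probe set named for one of them may take RNA of another, and their values are uncertain in this respect.

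Inulin mouse 5 stood apart over all genes, at 37.0 on the first principal component against -12.3 to 13.5 in the other mice, and results that rest on it are given with and without it. The labelled epithelium was well represented, with a mean over 10 epithelial markers between 11.39 and 11.51 in every mouse. Markers of other tissues also differed between mice. The mean over 9 fat cell markers was 5.56 to 6.19 in control and 5.77 to 8.40 in inulin mice, that over 8 pancreas markers 4.86 to 6.39 against 5.04 to 10.0, and that over 5 distal colon markers 6.94 to 7.97 against 6.36 to 7.26.

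Class II promoters are known for the X and Y boxes, and the sequences of those listed are shown here as a description. In the RefSeq promoter table (assembly GRCm38.p6, 250 bases before to 50 bases after each start), 34 of the 47 genes had an entry, among them 7 class II and 26 class I genes. The letters GCAAC, the core of the X box, followed after 15 to 40 bases by GATTGG, the Y box, were searched on the strand of the gene and upstream of its start. These 5 class II promoters hold both, printed from 10 bases before to 10 bases after the pair, with the X box core and the Y box in capitals:
H2-Aa: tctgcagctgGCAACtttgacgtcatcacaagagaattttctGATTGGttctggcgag
H2-Eb1: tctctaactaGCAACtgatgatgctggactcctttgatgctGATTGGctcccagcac
H2-Eb2: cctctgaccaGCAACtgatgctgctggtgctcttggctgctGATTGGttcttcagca
H2-Oa: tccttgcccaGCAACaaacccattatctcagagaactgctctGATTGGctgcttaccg
H2-Ob: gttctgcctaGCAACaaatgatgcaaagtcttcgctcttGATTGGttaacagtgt

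They lie on chromosome 17, at chr17:34287857-34287914 on the minus strand for H2-Aa, and on the plus strand at chr17:34305766-34305822 for H2-Eb1, chr17:34325533-34325589 for H2-Eb2, chr17:34092293-34092350 for H2-Oa and chr17:34238808-34238862 for H2-Ob. The spacing between the boxes hardly varied, with 24 bases in H2-Ob, 26 in H2-Eb1 and H2-Eb2 and 27 in H2-Aa and H2-Oa. The X box core began 76 to 132 bases before the start. The pair was found in 0.225% of all 32851 promoters, in 5 of the 7 class II promoters and in 0 of the 26 class I promoters. The class II promoters without it were those of H2-DMa and Ctss. GATTGG alone, on either strand, was in 16.1% of all promoters, 6 of 7 class II promoters and 15 of 26 class I promoters. The motifs and their spacing were chosen after the sequences had been seen, and a match describes letters and not a bound site.

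Class II genes held the widest spreads of the set, and inulin mouse 5 lay at the top of nearly all of them. Cd74, the invariant chain that fills the groove of a new class II molecule and steers it to endosomes, read 8.82, 8.64, 8.52, 9.11 and 8.79 in control mice 1 to 5 and 8.86, 7.86, 7.68, 8.24, 10.34 and 8.30 in inulin mice 1 to 6. H2-Aa, the alpha chain of I-A, read 8.06, 7.81, 7.78, 8.59 and 8.25 in control and 8.14, 7.26, 7.16, 7.53, 9.73 and 7.69 in inulin mice. H2-Ab1, its beta chain, read 8.20, 7.97, 7.74, 8.46 and 8.09 against 8.18, 7.58, 7.26, 7.80, 9.67 and 7.85. In all 3 genes inulin mouse 5 was highest, control mouse 4 next, and inulin mouse 3 lowest, so the diets overlapped.

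The second class II isotype behaved alike, as far as it is made. H2-Eb1, the beta chain of I-E, read 7.63, 7.52, 7.47, 7.94 and 7.24 in control and 7.65, 7.11, 6.78, 7.27, 9.31 and 7.16 in inulin mice. H2-Eb2, a related beta chain, read 5.79, 5.40, 5.23, 6.27 and 4.75 against 5.20, 4.69, 4.51, 5.05, 8.07 and 5.03. Again inulin mouse 5 led and control mouse 4 came next. H2-Ea, the alpha chain that would complete I-E, is silent in C57BL/6 mice because of a promoter deletion, and RefSeq lists it as a transcribed pseudogene. H2-Ea read 2.89, 2.88, 2.72, 2.93 and 2.91 in control and 2.90, 2.99, 2.90, 2.95, 2.95 and 2.97 in inulin mice, below the lower quartile everywhere.

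The genes that load class II also had their highest value in inulin mouse 5, as had the chains other than H2-Ea. H2-Oa and H2-Ob encode DO, a brake on peptide loading found mainly in B cells. H2-Oa read 4.97, 4.96, 4.81, 5.25 and 4.48 in control and 4.69, 3.96, 4.52, 4.58, 6.47 and 4.77 in inulin mice. H2-Ob read 6.50, 6.09, 6.18, 7.36 and 5.43 against 6.33, 4.96, 5.43, 5.85, 8.65 and 6.04. Within the controls, mouse 5 was low in both and mouse 4 was high.

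DM, which DO restrains, exchanges the invariant chain fragment for peptide, and H2-DMa is its alpha chain. H2-DMa read 6.28, 6.22, 6.03, 6.22 and 6.38 in control and 6.57, 5.96, 5.84, 6.06, 7.44 and 6.07 in inulin mice. Ciita, the transactivator, read 5.13, 5.09, 4.80, 5.44 and 4.99 against 5.05, 4.48, 4.66, 4.99, 6.59 and 4.81. Ctss, the cathepsin that cuts the invariant chain, read 9.97, 10.03, 9.99, 9.93 and 10.05 against 9.89, 9.91, 9.98, 10.04, 10.29 and 10.09. Ctss stayed within a narrow band, although its highest value too came from inulin mouse 5.

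**Figure D1:**
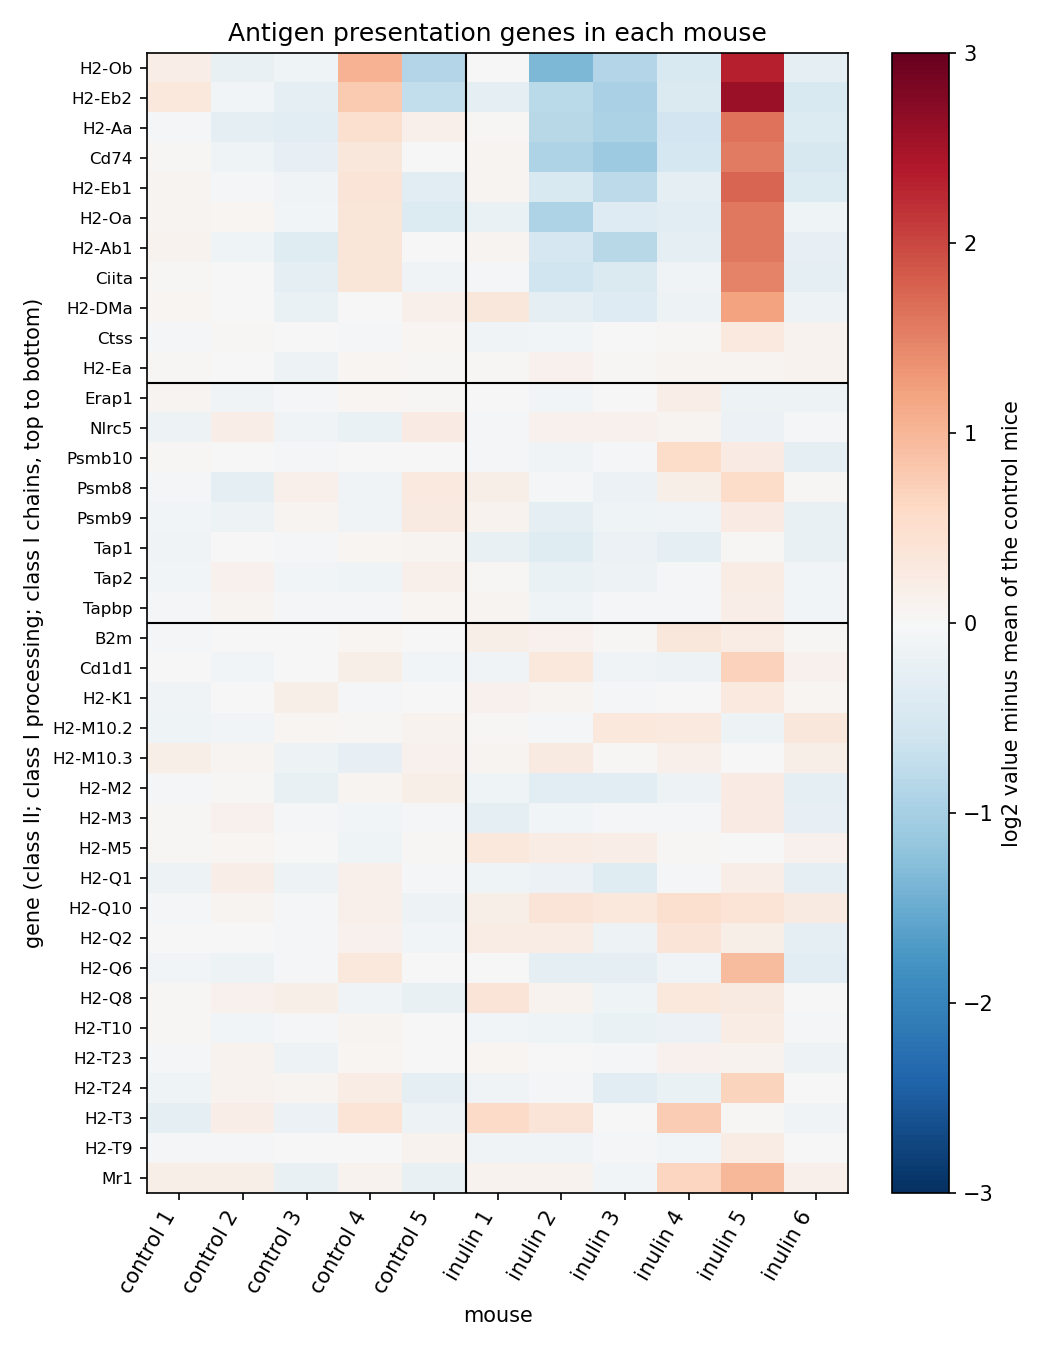
Heat map of the class I and class II genes above the lower quartile, and H2-Ea, with 1 column per mouse and 1 row per gene. Colour gives the log2 value minus the mean of the control mice, and horizontal lines part class II, class I processing and class I chains. The class II rows other than Ctss and H2-Ea are dark in inulin mouse 5 (H2-Eb2 at 8.07, H2-Ob at 8.65), while most class I rows are pale in every mouse.

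Inulin mouse 5 had the highest value of all 11 mice in 10 of 11 class II genes, against 14 of 34 class I genes and 15.6% of all genes. The order inulin mouse 5 first and control mouse 4 second held in 8 of 11 class II genes and 2.42% of all genes. Against the median of the other inulin mice, inulin mouse 5 was 8.24-fold higher in H2-Eb2, 6.98-fold in H2-Ob, 4.59-fold in H2-Aa, 4.28-fold in Cd74 and 3.44-fold in Ciita. H2-DMa differed 2.59-fold and Ctss 1.24-fold. The largest such difference among class I genes was 2.30-fold, in H2-Q6.

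The spread between mice of 1 diet gives the same order. Its SD had a median of 0.66 over the 11 class II genes, from 0.063 in H2-Ea to 1.07 in H2-Ob, against 0.15 over the class I genes and 0.13 over all genes. These medians without inulin mouse 5 were 0.30, 0.14 and 0.12. A share of 99.9% of all genes varied less than H2-Ob in the 11 mice, and 99.7% in the 10 mice. B2m, the light chain of class I, was among the steadiest of the set, with an SD of 0.088 and only 19.4% of genes below it.

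**Figure D2:**
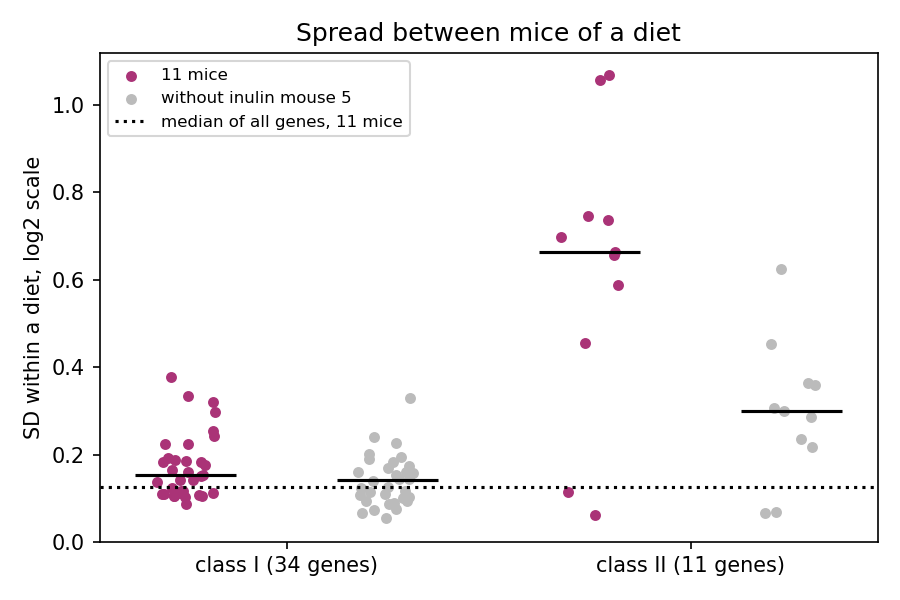
SD of the log2 value within a diet for each class I gene (34) and class II gene (11), with all 11 mice (purple) and without inulin mouse 5 (grey). Each point is a gene, each line the median of its group and the dotted line the median of all genes, 0.13. The class II median of 0.66 lies above the class I median of 0.15, and it is 0.30 without inulin mouse 5.

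Most class II genes moved together from mouse to mouse. Over the 11 mice, after the mean of each diet was taken off, the median correlation between the 11 class II genes was 0.918 over 55 pairs, with a lowest of 0.028, and 0.587 without inulin mouse 5. Leaving out Ctss and H2-Ea, a choice made after their values were seen, it was 0.956 over 36 pairs, and 0.764 without that mouse. For the 27 class I genes above the lower quartile it was 0.255 over 351 pairs, and 0.048 without that mouse. These are descriptions over shared arrays, not tests. H2-DMa, whose promoter entry lacks the pair of boxes, correlated with Cd74 at 0.974 too, and at 0.876 without inulin mouse 5. With H2-Ob it correlated at 0.827, and at 0.331 without that mouse. The part of the boxes in these values was not tested.

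Markers of B cells moved with the class II genes. The mean over 10 B cell markers was 5.42, 5.15, 5.03, 5.97 and 4.63 in control and 5.26, 4.45, 4.59, 4.86, 7.27 and 5.03 in inulin mice. Inulin mouse 5 was highest in 10 of these 10 markers, none of which had a mean below the lower quartile. The macrophage marker mean was 5.91 in inulin mouse 5 and 4.85 to 5.12 in the others. The dendritic cell mean was 4.89 in that mouse against 4.55 to 4.76, and the T cell mean 5.34 against 4.79 to 5.13.

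Ms4a1, which encodes the B cell antigen CD20, ran from 4.80 to 6.60 in control and from 4.28 to 8.44 in inulin mice. Across the 11 mice, H2-Ob followed it with r = 0.994 (permutation p 2e-05, 0.00016 after Benjamini-Hochberg adjustment over 8 gene pairs) and rho = 0.946 (permutation p 0.0001, adjusted 0.0004). Without control mouse 4 and inulin mouse 5, the 2 mice farthest from the median of Ms4a1, r was 0.973. For H2-Eb2, r was 0.979 (adjusted permutation p 0.00032), rho 0.982 (adjusted 0.00016), and r without those mice 0.881. The DO chain thus tracked CD20 also among the 9 remaining mice. The 8 pairs were chosen after the values had been seen, so their p-values are descriptions and no independent test.

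Cd74 and H2-Aa followed Ms4a1 less closely by value. For Cd74, r was 0.941 (adjusted permutation p 0.00096), rho 0.864 (adjusted 0.0028), and r without the same mice 0.751. For H2-Aa, r was 0.931 (adjusted permutation p 0.0011), rho 0.782 (adjusted 0.0096), and r without them 0.621. Whether these correlations differ from that of H2-Ob was not tested. Control mouse 5 shows where the genes parted: against the median of the other controls, H2-Ob was at -0.91 and H2-Eb2 at -0.84, but H2-Aa was at 0.32 and Cd74 at 0.06. The relation of Cd74 was not particular to the B cell gene. Over the 12 macrophage markers, its correlations ran from -0.44 (Cd163) to 0.944 (Lyz2). Without inulin mouse 5 they ran from -0.64 (Aif1) to 0.725 (Lyz2), beside 0.752 for Ms4a1.

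Neither Ctss nor B2m gave a relation with Ms4a1 that passed. For Ctss, r was 0.624 (adjusted permutation p 0.12), rho 0.109 (adjusted 0.76), and r without the 2 mice 0.070. For B2m, r was 0.373 (adjusted permutation p 0.25), rho 0.573 (adjusted 0.091), and r without them 0.192. All permutation tests were two-sided with 100000 resamples, on values with the diet means taken off, and the 8 pairs were chosen after the values had been seen.

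**Figure D3:**
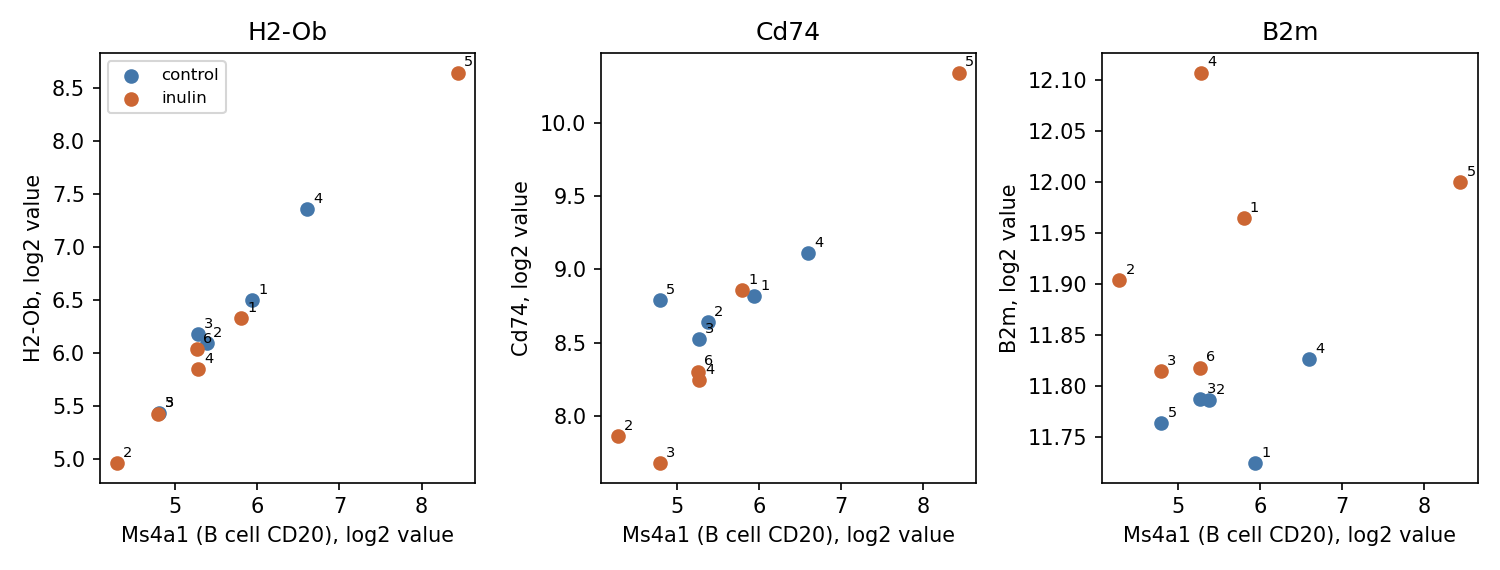
Log2 value of H2-Ob, Cd74 and B2m in each mouse against that of the B cell gene Ms4a1, with control mice in blue, inulin mice in orange and the number of the mouse beside each point. H2-Ob lies on a line through both diets up to inulin mouse 5 (Ms4a1 8.44, H2-Ob 8.65), Cd74 scatters around such a line, and B2m shows none.

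Among 9132 genes outside the set with a mean above the median, the 8 most like Cd74 over the 11 mice, by the correlation of deviations from the diet means, were Arhgdib (0.970), Ly86 (0.966), Cd53 (0.963), Cd37 (0.962), Laptm5 (0.960), Rac2 (0.951), Ptprc (0.951) and Tnfrsf13c (0.951). Ptprc encodes the pan-leukocyte antigen CD45, and Tnfrsf13c the B cell receptor for the survival factor BAFF. These 8 correlations without inulin mouse 5 were 0.770 to 0.864. They share arrays and that mouse and are given with no test.

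The comparison of the diets asked which of these genes differ in colon under a fermentable fibre. By limma, 0 of the 47 genes passed an adjusted p of 0.05, beside 0.0903% of all genes, and the smallest adjusted p in the set was 0.071. At an unadjusted p under 0.05 there were 3 of the 47, or 6.38%, beside 13.5% of all genes. Of these, H2-Q10 and B2m were higher in inulin mice (6.34% of all genes) and Tap1 was lower (7.19% of all genes). Over the whole set 25 genes were higher and 22 lower in inulin mice, and 51.4% of all genes were higher.

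For class II the direction of the difference between the diets depended on single mice. With all 11 mice, 4 of the 11 genes were higher and 7 lower in inulin mice, with a median difference of -0.04 beside 0.0039 over all genes, and 0 had an unadjusted p under 0.05. Cd74 differed by -0.23 ± 0.38 (SE, adjusted p 0.85, limma, 95% interval -1.04 to 0.59), a range that spans changes larger than a doubling downwards. Without inulin mouse 5, 10 of 11 class II genes were lower (47.1% of all genes), with a median of -0.37. The median was above 0 without control mouse 1 (0.0035) or control mouse 4 (0.08). It was above 0 also without inulin mouse 2 (0.07), inulin mouse 3 (0.09), inulin mouse 4 (0.02) or inulin mouse 6 (0.02). Without inulin mouse 5, 7 were lower at an unadjusted p under 0.05 (7.6% of all genes), and still 0 passed after adjustment, where 0.521% of all genes did.

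Those 7 genes were Cd74, H2-Aa, H2-Ab1, H2-Eb1, H2-Eb2, H2-Oa and Ciita. Cd74, again without that mouse, was at -0.59 ± 0.19 (SE, limma adjusted p 0.18) and H2-Aa at -0.54 ± 0.19 (SE, adjusted p 0.22). Over all alternatives tried, the adjusted p ran from 0.18 to 0.97 for Cd74 and from 0.22 to 0.99 for H2-Aa. The B cell marker mean differed in the same direction in those 10 mice, by -0.40, from 5.24 ± 0.50 over the 5 controls (SD) to 4.84 over 5 inulin mice, while the epithelial mean differed by 0.01. With the B cell and dendritic cell means as covariates in all 11 mice, the class II median was -0.06. Of the 11 genes 8 were lower (48.6% of all genes), and 0 had an unadjusted p under 0.05 (15% of all genes). With no covariates the same 11 mice gave a class II median of -0.04 and also 0 such genes (13.5% of all genes). No covariate fit left out inulin mouse 5, so the lower values in those 10 mice were not tested in this way. With fat cell and pancreas means as covariates, the class II median was -0.66, and 0 had an unadjusted p under 0.05 (10.9% of all genes). Without inulin mice 3, 4 and 5, those highest in pancreas markers, it was -0.31, and again 0 had an unadjusted p under 0.05 (13.4% of all genes). Inulin mouse 2, with a fat cell marker mean of 7.36 against at most 6.19 in control mice, stayed in that fit.

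**Figure D4:**
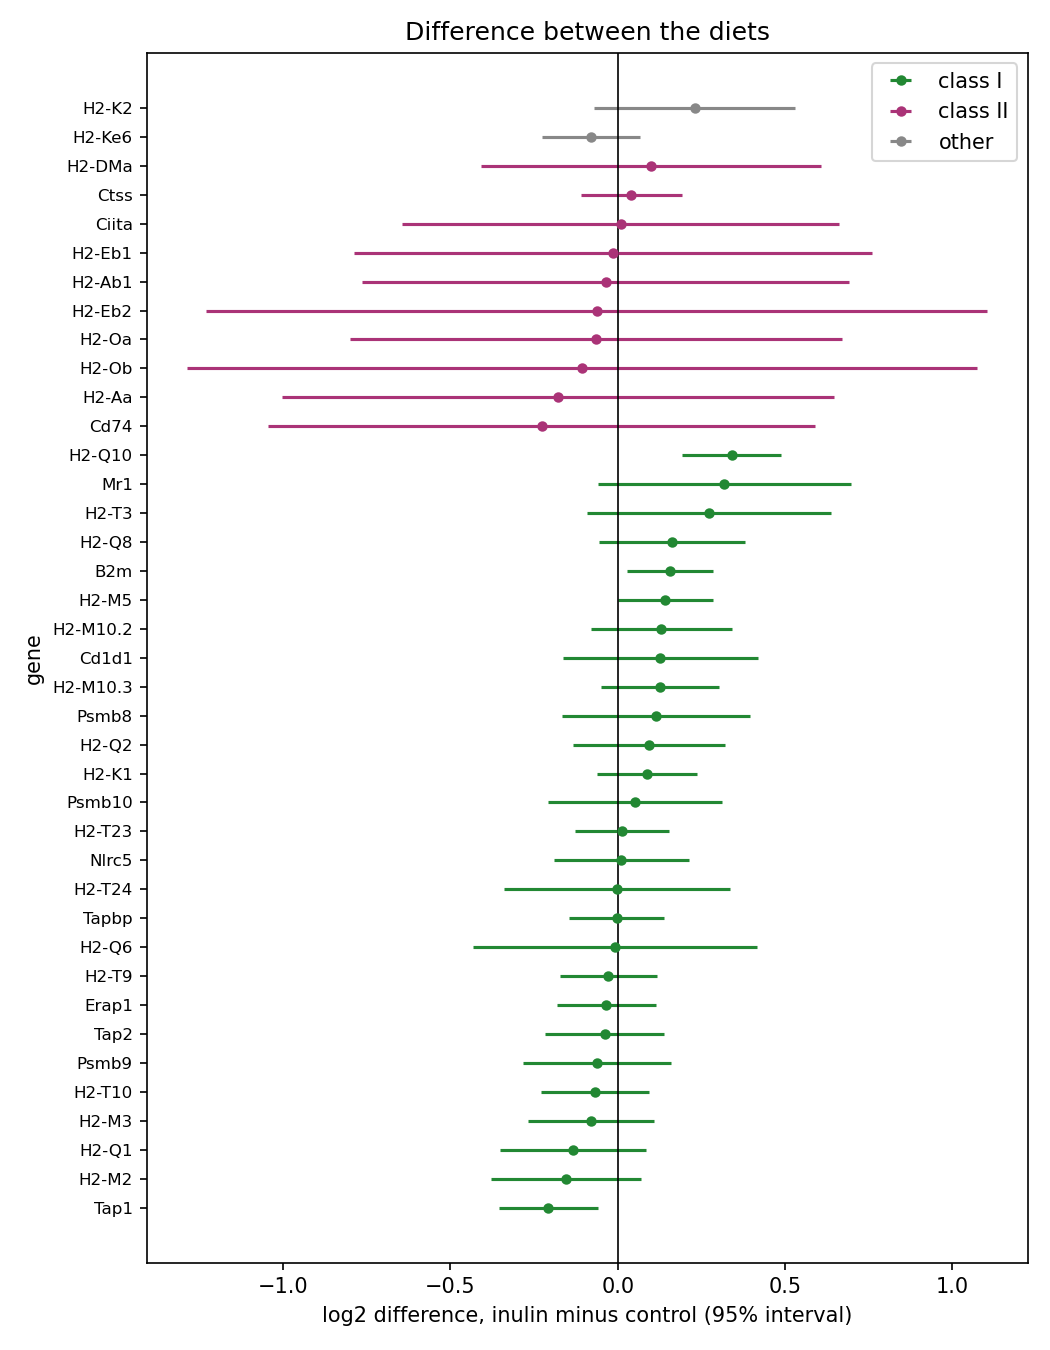
Difference of the log2 means, inulin minus control, of the 39 antigen presentation genes above the lower quartile, with 95% intervals from limma over 11 mice. Class II intervals (purple) are wide and span 0, as in Cd74 from -1.04 to 0.59, and of the class I genes (green) H2-Q10, B2m and Tap1 have intervals that leave out 0.

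The median of the class I differences was small. Its 34 genes had a median difference of 0.05, with 20 higher and 14 lower in inulin mice, and the mean over them per mouse averaged 6.26 ± 0.025 over the 5 controls and 6.31 ± 0.10 over the 6 inulin mice (SD). Without inulin mouse 5 the class I median was 0.02, and 8 of 34 genes had an unadjusted p under 0.05 (15.1% of all genes), 5 of them lower (7.6%). The class II mean was 6.67 ± 0.24 in control and 6.63 ± 0.77 in inulin mice. Taken within each mouse, class II minus class I was 0.52, 0.33, 0.24, 0.76 and 0.21 in control and 0.37, -0.20, -0.14, 0.04, 1.66 and 0.22 in inulin mice. The diets overlapped, and the means of 0.41 and 0.32 differed by -0.09, less than the SD of 0.23 in control mice. Without inulin mouse 5 they differed by -0.36, and 3 of the other 5 inulin mice lay below every control. Without control mouse 4, inulin mouse 2 or inulin mouse 3 the difference was -0.0022, 0.01 or 0.0034.

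Neither chain of the classical class I molecule passed the test, and their differences were not compared with each other. B2m, needed by all class I chains for transport to the surface, read 11.72, 11.79, 11.79, 11.83 and 11.76 in control and 11.96, 11.90, 11.81, 12.11, 12.00 and 11.82 in inulin mice. Its difference was 0.16 ± 0.059 (SE, limma unadjusted p 0.020, adjusted p 0.28). Only inulin mice 3 and 6 lay within the range of the controls. H2-K1, a classical heavy chain, read 10.47, 10.59, 10.76, 10.53 and 10.57 against 10.71, 10.66, 10.55, 10.59, 10.87 and 10.64, a difference of 0.09 ± 0.069 (SE, adjusted p 0.62), with overlap.

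The difference of B2m was 0.14 without inulin mouse 5, 0.15 with the B cell and dendritic cell covariates, and 0.071 with the fat cell and pancreas covariates (limma adjusted p 0.76, the highest of a range from 0.18 over the alternatives). Its promoter holds letters of the interferon type, GAAA followed after 2 bases by GAAA, which were found on either strand in 3.44% of all promoters, in 3 of 26 class I promoters (B2m, Erap1 and H2-T23) and in 1 of 7 class II promoters (Ctss). The stretch is printed for B2m, at chr2:122147538-122147587 on the plus strand, with the match in capitals, since that gene had the smallest p of those holding it:
B2m: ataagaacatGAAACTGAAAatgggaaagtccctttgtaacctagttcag

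H2-Q10, a heavy chain known as a secreted form of liver, was the only 1 of the 47 genes whose diets did not overlap, a share of 2.13% beside 2.18% of all genes. It read 4.16, 4.27, 4.16, 4.34 and 4.05 in control and 4.38, 4.59, 4.51, 4.69, 4.60 and 4.46 in inulin mice. The difference was 0.34 ± 0.069 (SE, 1.27-fold, limma adjusted p 0.071). All inulin mice lay above all controls, at low values not far above the lower quartile of 3.76. With each array centred on its median the adjusted p was 0.040, and with the fat cell and pancreas covariates the difference was 0.22 (adjusted p 0.38), and the adjusted p of the other alternatives lay between these.

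The other chains of class I had wider or smaller differences. H2-T3, the TL antigen that intestinal epithelium makes and that binds CD8 alpha homodimers, averaged 8.37 ± 0.29 over the 5 controls and 8.65 ± 0.35 over the 6 inulin mice (SD), a difference of 0.27 ± 0.17 (SE, limma adjusted p 0.51). Mr1, which presents microbial riboflavin metabolites to MAIT cells, was at 4.29 ± 0.21 and 4.60 ± 0.41, a difference of 0.32 that was 0.18 without inulin mouse 5. Cd1d1, which presents lipids to NKT cells, was at 6.11 ± 0.10 and 6.24 ± 0.33, a difference of 0.13 that was 0.01 without that mouse. H2-T23, the Qa-1 heavy chain read by NK cell receptors, was nearly level, at 9.27 ± 0.10 and 9.28 ± 0.10.

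H2-Q6 and H2-T24 took part in the high values of inulin mouse 5. In that mouse they stood at 8.08 and 5.54, 2.30-fold and 1.72-fold above the median of the other inulin mice, while their diet differences were -0.0073 and -0.0023, and -0.20 and -0.14 without it. H2-M3, which presents formylated bacterial peptides, differed by -0.08 and H2-M2 by -0.15, and by -0.15 and -0.23 without inulin mouse 5 (limma adjusted p 0.32 and 0.19). Of the H2-M10 chains, H2-M10.2 had a mean of 4.51 in control and 4.64 in inulin mice, while H2-M10.1, H2-M10.4, H2-M10.5 and H2-M10.6 read between 2.48 and 3.17 on average, below the lower quartile. Over all 26 chains the differences ran from -0.15 to 0.34, with 17 higher and 9 lower in inulin mice.

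**Figure D5:**
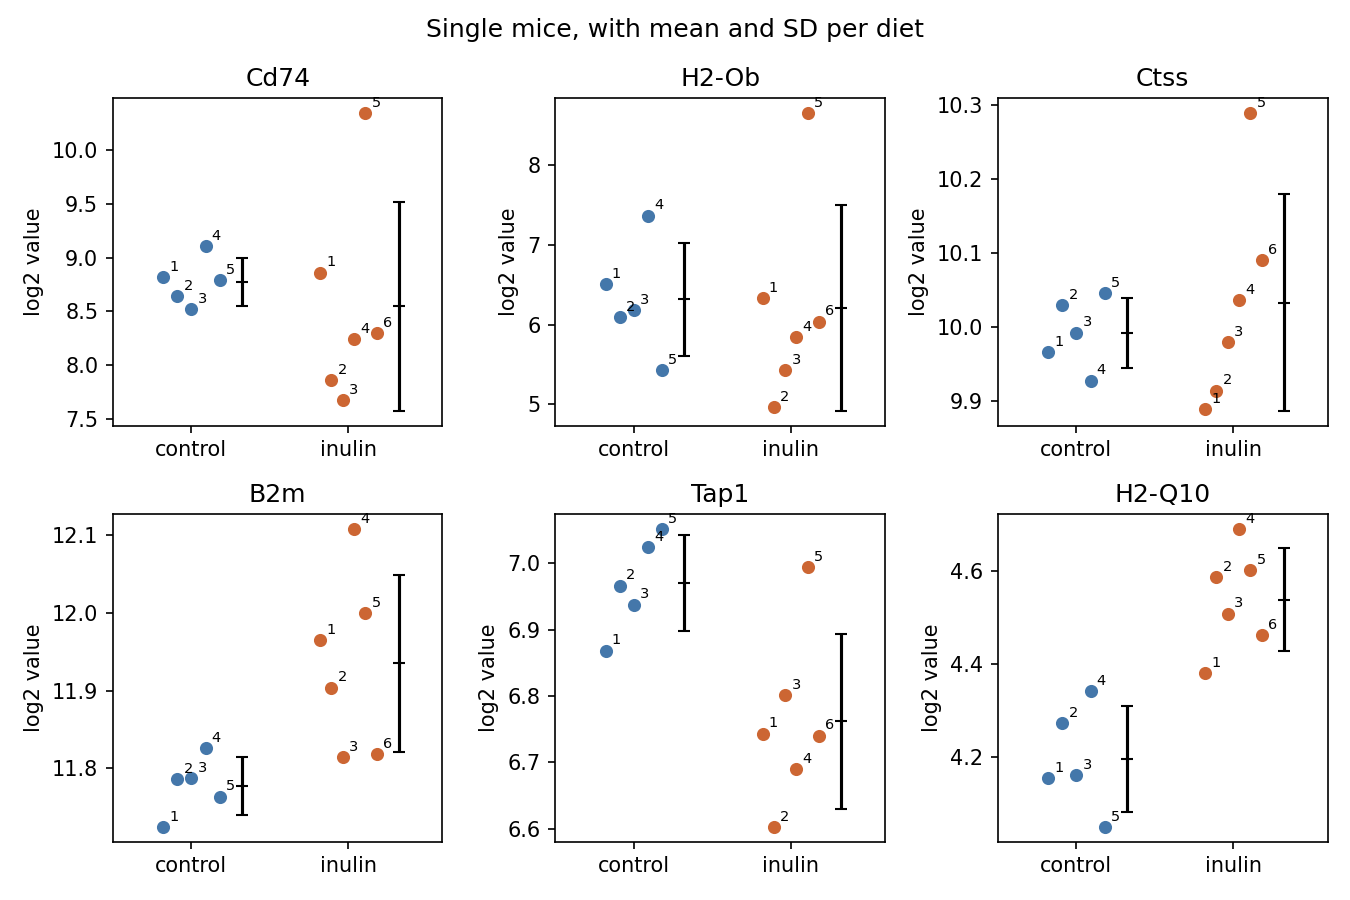
Log2 values of Cd74, H2-Ob, Ctss, B2m, Tap1 and H2-Q10 in each mouse, control in blue and inulin in orange with the number of the mouse, and beside them the mean and SD of each diet. The axes differ in range and do not start at 0. Inulin mouse 5 tops Cd74 (10.34), H2-Ob (8.65) and Ctss (10.29), and all inulin mice lie above the controls in H2-Q10.

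Among the 8 genes of class I processing, Tap1 alone had an unadjusted p under 0.05. Tap1, a subunit of the peptide pump, read 6.87, 6.97, 6.94, 7.02 and 7.05 in control and 6.74, 6.60, 6.80, 6.69, 6.99 and 6.74 in inulin mice. It differed by -0.21 ± 0.068 (SE, 95% interval -0.35 to -0.06, limma unadjusted p 0.0094, adjusted p 0.22). Every inulin mouse but mouse 5 lay below every control. Without that mouse the difference was -0.25 ± 0.056 (SE, adjusted p 0.061), and with the B cell and dendritic cell covariates it was -0.21 (adjusted p 0.13). Over all alternatives tried, the adjusted p of Tap1 ran from 0.061 to 0.38, and the difference stayed below 0.

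Its partners did not share that difference by value. Tap2, the other part of the pump, read 6.84, 7.06, 6.85, 6.81 and 7.09 in control and 6.96, 6.73, 6.79, 6.86, 7.14 and 6.85 in inulin mice. Tapbp, the tapasin that holds empty class I at the pump, read 10.23, 10.39, 10.27, 10.22 and 10.35 against 10.38, 10.17, 10.23, 10.23, 10.50 and 10.22. Erap1, which trims peptides in the endoplasmic reticulum, read 8.16, 7.98, 8.02, 8.15 and 8.12 against 8.10, 7.99, 8.06, 8.28, 7.93 and 7.94. The diets overlapped in all 3, with differences of -0.04, -0.0033 and -0.03.

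The immunoproteasome subunits replace constitutive ones and shift what the proteasome cuts. Psmb8 read 6.35, 6.13, 6.57, 6.31 and 6.71 in control and 6.60, 6.35, 6.23, 6.58, 6.97 and 6.44 in inulin mice. Psmb9 read 7.26, 7.18, 7.43, 7.23 and 7.61 against 7.44, 7.08, 7.22, 7.23, 7.58 and 7.13. Psmb10 read 9.49, 9.46, 9.41, 9.48 and 9.48 against 9.42, 9.37, 9.43, 10.02, 9.70 and 9.17. Psmb8 and Psmb9 were high in the same mice, control mouse 5 and inulin mouse 5, whereas Psmb10 was highest in inulin mouse 4. Their diet differences of 0.12, -0.06 and 0.05 had limma adjusted p of 0.75, 0.84 and 0.89.

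Across the 11 mice Psmb8 followed Psmb9 with r = 0.895 (permutation p 0.0005, adjusted 0.001) and rho = 0.836 (adjusted permutation p 0.0048), and with r = 0.725 without control mouse 5 and inulin mouse 5. Tap1 and Psmb9 are transcribed away from each other, with starts 226 bases apart in the RefSeq table. Tap1 followed Psmb9 with r = 0.675 (adjusted permutation p 0.035) and rho = 0.509 (adjusted 0.13). Without the same mice r was 0.198, so that relation rests on them. These pairs are among the 8 chosen after the values had been seen, and their p-values are descriptions too.

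Nlrc5, the class I transactivator, read 6.97, 7.33, 7.01, 6.92 and 7.36 in control and 7.09, 7.24, 7.25, 7.20, 6.94 and 7.05 in inulin mice, a difference of 0.01 (limma adjusted p 0.97). It was measured by 19 probe sets, the highest of which was used. Of the 19, 5 were higher and 14 lower in inulin mice, from -0.20 to 0.23, and 3 had an unadjusted p under 0.05, so they disagree in direction. Inulin mouse 5, highest in class II, was second lowest in Nlrc5.

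The genes most like Tap1 over the 11 mice, by the same rule as for Cd74, were Gsdmd (0.946), Dbnl (0.938), Arhgef16 (0.917), Wfdc17 (0.914), Ccl20 (0.913), Sp110 (0.905), Sp100 (0.903) and Tmem37 (0.902). Gsdmd encodes the pore protein of pyroptosis, Ccl20 a chemokine of the epithelium over lymphoid follicles, and Sp100 and Sp110 nuclear body proteins induced by interferon. The 8 correlations without inulin mouse 5 were 0.741 to 0.894. None of the 8 genes is among those most like Cd74. Tap1 itself correlated with Cd74 at 0.739 over the 11 mice, and at 0.176 without that mouse.

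Genes of the same pathway outside the set gave 0 past the limma threshold in each of 10 lists (0.0903% of all genes). At an unadjusted p under 0.05 there were 4 of the 64 measured genes, or 6.25%, beside 13.5% of all genes. In the lysosomal processing of class II antigens, 5 of 6 measured genes were higher, with a median difference of 0.08. Lgmn, the asparaginyl endopeptidase that opens antigens and activates cathepsins, read 8.44, 8.50, 8.32, 8.82 and 8.57 in control and 9.54, 9.19, 9.01, 9.63, 9.28 and 8.82 in inulin mice. It was 1.64-fold higher (difference 0.72 ± 0.14 SE, limma adjusted p 0.065), and the diets touched only at control mouse 4 and inulin mouse 6. Without inulin mouse 6 the adjusted p was 0.028, and over all alternatives it ran from 0.010 to 0.29. Ctsz, a carboxypeptidase of lysosomes, differed by 0.21 (limma unadjusted p 0.031, adjusted p 0.32).

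Ms4a7 and Cd163, genes of resident macrophages, cells rich in lysosomal proteases, were higher as well, by 0.36 ± 0.067 and 0.25 ± 0.068 (SE, limma adjusted p 0.057 and 0.15). Over the macrophage list, 11 of 12 measured markers were higher, with a median of 0.22, and 3 had an unadjusted p under 0.05 (13.5% of all genes). Without inulin mouse 5, 8 of 12 were higher, the median was 0.03, and 2 had an unadjusted p under 0.05, Ms4a7 at 0.39 (limma adjusted p 0.031, past the threshold, as in 0.521% of all genes) and Cd163 at 0.27 (adjusted p 0.1). The part of these cells in the value of Lgmn was not tested. Lgmn differed by 0.71 without inulin mouse 5 and by 0.68 with the B cell and dendritic cell covariates (adjusted p 0.0498).

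In the class I pathway outside the set, 4 of 6 genes of the peptide loading complex were lower, with a median of -0.02. Calr, calreticulin, differed by -0.13 (limma unadjusted p 0.054) and Pdia3, the ERp57 of the complex, by -0.07. Of the proteasome activator and constitutive subunits, 6 of 7 were higher, with a median of 0.06. Pomp, the proteasome assembly factor, differed by 0.20 (unadjusted p 0.020, adjusted p 0.27), and Psmb5, the subunit that Psmb8 replaces, by 0.15. Among other peptidases, 3 of 4 were higher, with Lap3 at -0.10 and Blmh at 0.09.

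Of 8 measured genes of interferon gamma signalling, 5 were higher and 3 lower, with a median of 0.03, and 3 were higher, with a median of -0.02, without inulin mouse 5. Socs1, the feedback inhibitor, differed by 0.08, and Ifngr1, a receptor chain, by 0.04 (0.06 and -0.00059 without that mouse). Ifng itself was below the lower quartile. Of 9 interferon-induced GTPases and chemokines, 8 were lower, with a median of -0.22, and none passed.

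Iigp1, a GTPase that attacks vacuoles of intracellular parasites, read 4.62, 5.07, 4.93, 4.49 and 5.45 in control and 4.59, 4.62, 4.11, 4.52, 4.38 and 4.81 in inulin mice. Its difference was -0.40 ± 0.16 (SE, limma adjusted p 0.30), with overlap. Gbp2, a guanylate-binding protein, differed by -0.57 ± 0.29 (SE, adjusted p 0.41). Control mouse 5 was the highest of the mice in both, as it was in Psmb9, and the lowest control in the B cell marker mean.

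With all 11 mice the remaining lists held no value past an unadjusted p of 0.05. In the class II enhanceosome, the factors that bind the X and Y boxes, 4 of 6 were lower, with a median of -0.03, Nfyb at -0.12 and Rfxap at -0.10. In class II trafficking, 4 of 5 were higher, with Rab7 at 0.09 and Lamp1 at 0.04, and 3 of 5 without inulin mouse 5, with Lamp1 at 0.01. Of 7 costimulation genes, 5 were higher, with Icosl at -0.21 and Cd86 at 0.18, and inulin mouse 5 was highest in 7 of 7. Without that mouse 2 of the 7 were higher, with Icosl at -0.35 and Cd86 at -0.0079. Of 6 class I-like stress ligands, 4 were lower, with Raet1e at -0.26 and Hfe at -0.07.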

How the data were processed

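The authors deposited 1 table of log2 values. The submitters' processing notes name RMA, the robust multi-array average, which makes the arrays alike and so removes shifts shared by most genes. No version or probe set definition is given in the sources used here. Scanner signals were not used here, so values could not be set against a measured background. Of 35556 probe sets, 21218 had 1 symbol in the platform annotation. Each of the 18820 genes is represented by its brightest probe set, judged by the mean of 11 arrays. Of the 47 genes, 46 matched a RefSeq gene by Entrez number, and H2-T9 did not.

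Inulin and control were compared with limma 3.58.1 in R 4.3.3, with Benjamini-Hochberg adjustment over all 18820 genes and a threshold of 0.05. Permutation tests used scipy 1.17.1. The steps were tested on simulated data. Medians and counts over genes are descriptions, because genes are not replicates. The number of arrays limits the precision.

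The genes and lists were chosen with earlier results of these data known. Each mouse's value is printed for class II, H2-K1, B2m, class I processing and any further member with an unadjusted p under 0.05, and of each list the 2 genes with the smallest p are named. H2-M1 was put with the class I chains, which the written pattern had left out. Further genes and mice singled out (Lgmn's neighbours Ms4a7 and Cd163, Ms4a1, the other class I chains) were chosen after their values were seen. Alternatives are given in the closing section.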

Additional observations from a re-analysis of the deposited data

Results flagged for a closer look

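In 100 groups of 5 or 6 mice, 17 had a mouse that stood far from the rest by Dixon's criterion, where chance gives about 1 in 20. Inulin mouse 5 was that mouse in 12 of the 17. In class II it was highest in Ciita (6.59), H2-Eb1 (9.31), H2-Eb2 (8.07), H2-Oa (6.47) and H2-Ob (8.65), in the class II mean (8.14) and in class II minus class I (1.66). In class I it was highest in H2-M2 (5.64), H2-Q6 (8.08), H2-T10 (7.70), H2-T24 (5.54) and H2-T9 (8.19). The other 5 were spread over mice: H2-Ea was low in control mouse 3 (2.72), H2-K2 low in control mouse 1 (7.32), H2-M11 high in control mouse 5 (3.59), H2-M5 low in control mouse 4 (3.78) and H2-M10.5 high in inulin mouse 1 (2.78). H2-Ea, H2-M11 and H2-M10.5 are below the lower quartile of all values on average. The 100 groups share mice and correlated genes, and the class means are made from the same genes. The 17 flags are therefore not independent, and their number was not tested against 1 in 20.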

How the results depend on the processing

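The count of 0 antigen presentation genes past the threshold became 1, H2-Q10 at 0.37, with each array centred on its median, which moved every difference up by the same amount, and it was 0 under all other alternatives. The count of 3 genes with an unadjusted p under 0.05 was 5 with the replicate number as a block (15.5% of all genes, against 13.5% with no block), 5 without inulin mice 3, 4 and 5 (13.4%), 6 with fat cell and pancreas covariates (10.9%) and 7 with B cell and dendritic cell covariates (15%), and leaving out 1 mouse gave 3 to 15, the highest without inulin mouse 5, where 15.1% of all genes had such a p. The count of 0 related pathway genes became 1, Lgmn in each case, with array centring, the replicate block and the B cell and dendritic cell covariates, and leaving out 1 mouse gave 0 to 1. The labels do not say whether mice with the same replicate number belong together. Deviations of mice with the same number correlated at -0.10 to 0.22. The best correlation of each of these controls with another inulin mouse was 0.072 to 0.20, so these values cannot decide it. Inulin mouse 6 has no partner, so the block also takes it out of the comparison, and Lgmn passed without that mouse with no block too, at a limma adjusted p of 0.028. The block changed no other call. Ciita, at 0.01, ran from -0.29 to 0.13 as 1 mouse was left out, the lowest without inulin mouse 5, where its sign turned at an unadjusted p of 0.042. The class II median ran from -0.66 to 0.09 and the class I median from -0.05 to 0.07 over all alternatives. Why these values moved was not tested.

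The number of arrays limits the class II comparison, whose genes spread widely between mice. Low chains, among them most H2-M genes, lay below the lower quartile on average and were taken to carry little signal. Another 7 probe sets name an H2 gene beside other symbols and were left out of the tests. Their differences ran from -0.16 to 0.18, and 1 had an unadjusted p under 0.05.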
